A study of Mus musculus with 4 samples.

Results

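E2A binding at the genes of the Ikaros family was described from ChIP-Seq in thymocytes of L-DKO mice, in CD4 and CD8 double-positive (DP) cells and in invariant natural killer T (iNKT) cells, which are selected from DP cells by CD1d. The members are Ikzf1, Ikzf2, Ikzf3, Ikzf4 and Ikzf5, and a peak was counted at a gene when its midpoint lay in the gene body or within 100 kb of it on the mm9 genome. By this rule 46 of the 17532 DP peaks and 5 of the 1516 iNKT peaks belonged to the family. The L-DKO mice are Id2f/fId3f/fLckCre+ animals, in which Cre from the T lineage Lck promoter deletes both Id2 and Id3, on a C57BL/6 background or as hybrids of C57BL/6 and 129. Thymocytes of mice 3 to 5 weeks old were sorted as CD1dTet- CD4+ CD8+ cells for DP and as CD1dTet+ TCRβ+ cells for iNKT. Cells of 3 to 4 mice were pooled for a sample, and each cell type gave 1 library precipitated with the E2A antibody V-18 and 1 input library without antibody. Both lists come from L-DKO mice, so they hold no wild type binding. No library was replicated, so no error between libraries can be given and no difference between DP and iNKT cells was tested. Peak lists hold no expression, so neither the sorted cell types nor the loss of Id2 and Id3 could be checked in them.

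Ikaros family proteins are zinc finger transcription factors whose N-terminal fingers bind DNA and whose C-terminal fingers pair family members with each other. Ikzf1 encodes Ikaros, which is needed for lymphoid development and is made throughout T cell differentiation, and Ikzf3 encodes Aiolos, which is made in later thymocytes and B cells. Ikzf2 and Ikzf4 encode Helios and Eos, both known from regulatory T cells, and Ikzf5 encodes Pegasus, the most distant relative, which is made in many tissues. E2A, the product of Tcf3, is an E protein that binds E-box sequences as a dimer, and Id proteins pair with E proteins and keep them off DNA.

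The sequences below are those on which the description turns, read from the plus strand of mm9. The first 5 lines are the places where a DP and an iNKT peak overlapped, as 200 bases around the E-box nearest to the middle of the overlap. E-boxes of the forms CAGGTG, its reverse complement CACCTG, and CAGCTG are in capitals.
Ikzf1 upstream, chr11:11578987-11579186: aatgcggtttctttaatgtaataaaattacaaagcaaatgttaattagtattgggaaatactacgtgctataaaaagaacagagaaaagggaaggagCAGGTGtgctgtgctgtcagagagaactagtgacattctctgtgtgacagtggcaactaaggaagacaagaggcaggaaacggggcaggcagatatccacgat
Ikzf1 intron 3, first site, chr11:11616681-11616880: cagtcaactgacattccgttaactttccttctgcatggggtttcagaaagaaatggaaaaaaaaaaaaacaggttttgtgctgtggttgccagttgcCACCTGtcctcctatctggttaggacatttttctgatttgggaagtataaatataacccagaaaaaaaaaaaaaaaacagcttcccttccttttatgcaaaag
Ikzf1 intron 3, second site, chr11:11625944-11626143: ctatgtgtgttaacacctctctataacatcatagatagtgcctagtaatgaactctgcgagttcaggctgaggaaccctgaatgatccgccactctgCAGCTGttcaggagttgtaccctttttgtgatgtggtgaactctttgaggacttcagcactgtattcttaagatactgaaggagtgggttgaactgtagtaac
Ikzf2 upstream, chr1:69815526-69815725: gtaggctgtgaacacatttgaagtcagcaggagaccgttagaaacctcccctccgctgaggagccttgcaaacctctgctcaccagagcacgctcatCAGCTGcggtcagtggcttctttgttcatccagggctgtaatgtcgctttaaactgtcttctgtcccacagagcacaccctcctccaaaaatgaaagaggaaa
Ikzf3 downstream, chr11:98320634-98320833: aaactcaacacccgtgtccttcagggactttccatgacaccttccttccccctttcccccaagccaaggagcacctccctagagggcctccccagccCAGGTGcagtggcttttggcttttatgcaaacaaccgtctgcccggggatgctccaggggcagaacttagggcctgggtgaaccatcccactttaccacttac
The next line is from the highest DP peak of Ikzf5, which overlapped no iNKT peak, and is shown for its E-box pair.
Ikzf5 upstream, chr7:138612992-138613191: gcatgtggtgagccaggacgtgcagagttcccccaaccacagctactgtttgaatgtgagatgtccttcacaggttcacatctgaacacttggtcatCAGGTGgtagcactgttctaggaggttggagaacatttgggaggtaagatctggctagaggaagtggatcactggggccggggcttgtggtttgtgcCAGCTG
The last lines are 30 bases around the E-box nearest to the midpoint where that E-box lies in an exon. They come from the DP peaks over the transcription start sites of Ikzf3 and Ikzf5 and from the highest DP peak in the window of Ikzf4, where the exon belongs to Pmel.
Ikzf3 start site, chr11:98407076-98407105: ccgcgcgggctgCAGCTGtcgctcaggctc
Ikzf5 start site, chr7:138553975-138554004: tcgtcagcgtcgCAGCTGtagccgccatat
Ikzf4 window, Pmel exon, chr10:128153346-128153375: ttgtgggtactaCACCTGgccagatgccaa

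The members differed widely in the number of DP peaks. Ikzf3 had 21, Ikzf1 had 12, Ikzf4 had 9, and Ikzf2 and Ikzf5 had 2 each. All 5 members thus had a DP peak, against 65.1% of the 22208 annotated protein-coding genes in windows made the same way. The median over the members was 9 peaks, and over all protein-coding genes it was 2, with quartiles of 0 and 5. The member median was the count of Ikzf4, and none of its 9 peaks lay in the gene or had its start site as the nearest. As many DP peaks as at Ikzf3 were found at 0.423% of genes, as many as at Ikzf1 at 4.28% and as many as at Ikzf4 at 9.41%. Ikzf2 and Ikzf5 stood at the median, since 50.8% of genes had at least as many. Long genes have wider windows, and per 100 kb of window the density was 7.47 DP peaks at Ikzf3, 4.18 at Ikzf4, 4.17 at Ikzf1, 0.901 at Ikzf5 and 0.564 at Ikzf2. The median density over all genes was 0.607, and 0.815% of genes were at least as dense as Ikzf3. Neighboring genes share peaks, so these percentages describe the list and are no test.

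**Figure D1:**
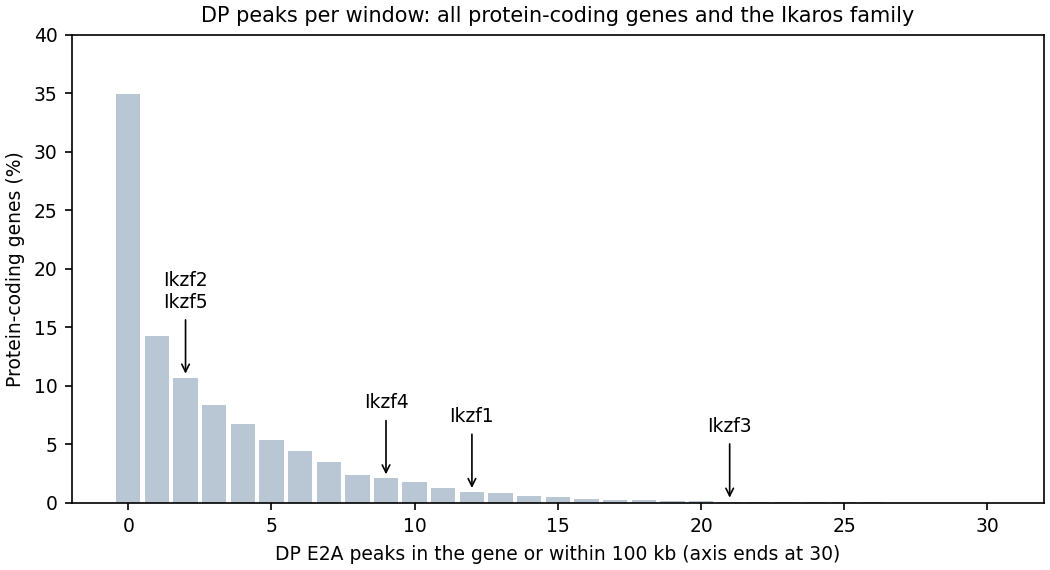
Percent of the 22208 protein-coding genes (vertical axis) by number of DP E2A peaks in the gene or within 100 kb (horizontal axis, cut at 30), with arrows at the 5 Ikaros family genes. Ikzf2 and Ikzf5 sit at 2 peaks, the median of all genes, and Ikzf4, Ikzf1 and Ikzf3 lie in the right tail at 9, 12 and 21 peaks.

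Not all peaks of a window lay close to the family member. Of the 46 DP peaks, 19 had their midpoint inside a member, with 10 in Ikzf3, 7 in Ikzf1, 1 in Ikzf2 and 1 in Ikzf5. Ikzf4 had none, so 4 of the 5 members had a DP peak in the body, against 20.4% of protein-coding genes. For 16 of the 46 peaks the nearest protein-coding transcription start site was that of the member, and for the others it was that of a neighbor. The windows of Ikzf3 and Ikzf4 each held 11 protein-coding start sites, that of Ikzf5 held 7, that of Ikzf1 held 3 and that of Ikzf2 only its own. Which gene a peak acts on was not tested.

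**Figure D2:**
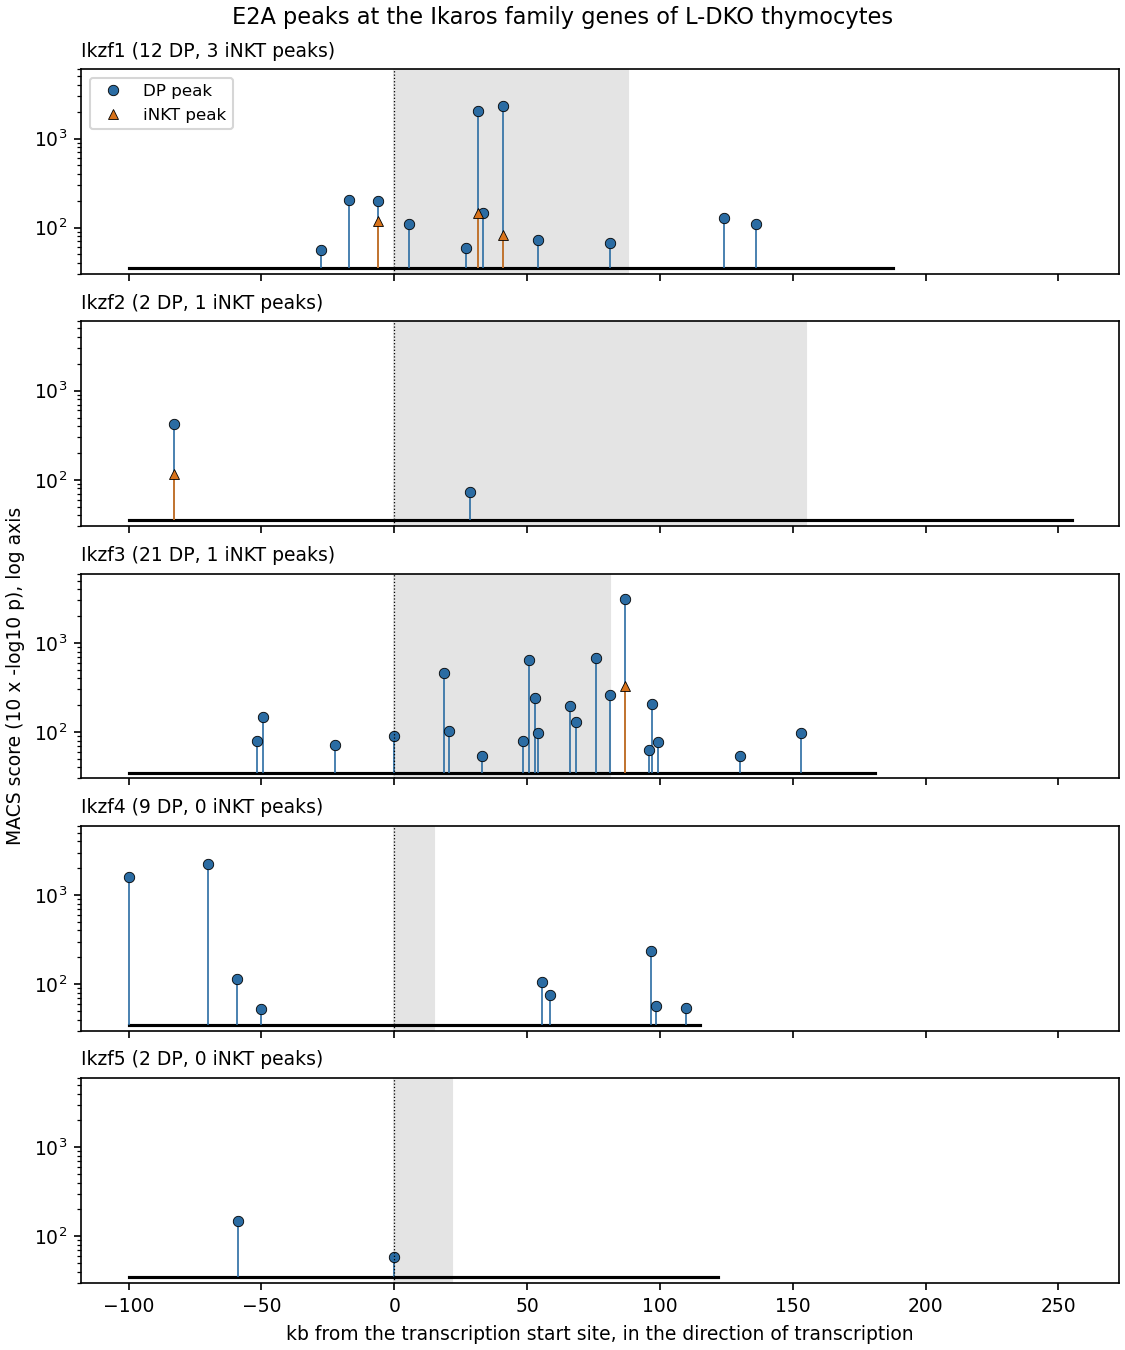
Score of each E2A peak (vertical log axis, 10 times the negative log10 of the MACS p-value) against the distance of its midpoint from the transcription start site in kb, in the direction of transcription, for each of the 5 genes. Grey marks the gene body, the black line the window, circles DP peaks and triangles iNKT peaks. The bodies of Ikzf1 and Ikzf3 hold 7 and 10 DP peaks, the body of Ikzf4 holds none, and the 5 iNKT peaks each sit at a DP peak.

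The score of a peak is 10 times the negative log10 of its MACS p-value, and the weakest peaks of both lists had a p-value of 1e-05. It grows with sequencing depth, which the lists do not give, so scores and ranks were read within a list only. The 46 DP peaks had a median score of 109, with quartiles of 71.8 and 226, against a median of 141 over all DP peaks, with quartiles of 76.2 and 366. A score under 100 was found for 20 of the 46, or 43.5% (95% Wilson interval 30.2 to 57.8), and for 37.4% of all DP peaks. At the other end, 5 of the 46, or 10.9% (4.73 to 23.0), reached 1000, against 9.51% of all. Ikzf1, Ikzf3 and Ikzf4 thus had more DP peaks than most genes, while both shares over the whole list lay inside the intervals of the family. Wilson intervals cover counting error only.

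Ikzf1 lies on the plus strand of chr11:11585006-11672929, and its 2 highest DP peaks lay in its intron 3. The peak chr11:11624833-11627458 had a score of 2345, rank 508 in the DP list, 41.1 kb downstream of the transcription start site. The peak chr11:11615749-11617671 had a score of 2037, rank 631, at 31.7 kb. They stood within the highest 2.90% and 3.60% of the DP list. These and 2 weaker peaks, with scores of 145 and 59.5, lay within a stretch of 16.0 kb of this intron, and another peak of the same intron, at 54.3 kb, had a score of 71.8. The third peak by score, chr11:11567552-11568579, with a score of 205, lay 16.9 kb upstream of the start site. Upstream there were also peaks at 5.93 kb with a score of 197 and at 27.7 kb with a score of 56.6. All 3 upstream midpoints fell in the body of Gm11999, a long non-coding RNA annotated on the opposite strand.

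No DP peak lay within 1 kb of the first start site of Ikzf1. The annotation gives Ikzf1 8 transcript start sites over 12 transcripts, and the DP peak chr11:11589688-11591113, with a score of 108, covered 2 of these. Its midpoint lay 65 and 135 bp from these starts, both of coding transcripts, and 5.39 kb from the first start site. In the 3′ part of the gene, a peak in intron 7 had a score of 67.1. Past the gene, a peak with a score of 129 lay 10 bp from the start site of Fignl1, which encodes an ATPase of DNA repair, and a peak with a score of 109 lay 48.0 kb past the end of Ikzf1, in Ddc, the gene of a decarboxylase.

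All 3 iNKT peaks of Ikzf1 overlapped DP peaks. The iNKT peak chr11:11615773-11617350 had a score of 146 and rank 330 of 1516, and lay wholly within the DP peak with a score of 2037. The iNKT peak chr11:11625085-11626825 had a score of 82.7 and rank 722, and lay wholly within the DP peak with a score of 2345. The iNKT peak chr11:11578426-11579416 had a score of 120 and rank 424, and shared 908 bp with the upstream DP peak, which ranked 6917 in its own list. Within each list, the order of the 3 sites was not the same. The intronic peak that was highest in DP cells was the lowest of the 3 in iNKT cells, and the upstream peak, the lowest of the 3 in DP cells, stood above it. The lists differ in length, their depth is unknown and neither has a replicate, so this order has no error and was not tested. As many iNKT peaks as at Ikzf1 were found at 0.702% of protein-coding genes.

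The shared sites of Ikzf1 differed in their E-boxes. The upstream overlap held a single E-box, the CAGGTG printed above, 124 bp from its middle. The overlap of the first site in intron 3 held 5, and that of the second site held 6, of which the CAGCTG printed above lay 88 bp from the middle. The central 200 bp of the DP peak at the second site, the highest of the gene, held neither form whole. The CAGCTG printed above, at chr11:11626041-11626046, lay across the edge of this central window. The others of the 6 E-boxes lay further out in a peak of 2626 bp.

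Ikzf3 lies on the minus strand of chr11:98326216-98407345, and the strongest peak of the family lay just past its 3′ end. This DP peak, chr11:98318320-98322371, had a score of 3100, a value shared by 258 DP peaks that together hold rank 27, and its midpoint was 5.87 kb beyond the end of the gene. The same score of 3100 was held by 4 iNKT peaks, the highest of that list. It may be a limit of the scoring, which was not tested, so rank 27 is not exact. At 4052 bp this DP peak was the widest of the 46, and 74 DP peaks were at least as wide. It lay between Grb7, which encodes an adaptor of receptor tyrosine kinases, and Ikzf3, and its midpoint fell in no annotated gene. The nearest protein-coding start site was that of Grb7 at 12.6 kb, whereas the start site of Ikzf3 was 87.0 kb away. It was also the only peak in the window of Ikzf3 that overlapped an iNKT peak. That iNKT peak, chr11:98319705-98321673, had a score of 325 and rank 106 of 1516, the highest iNKT rank of the family, and lay wholly inside the DP peak. The overlap held 7 E-boxes, and the CAGGTG printed above was 44 bp from its middle.

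Within Ikzf3 the DP peaks were all intronic. The highest was chr11:98330901-98332174 in intron 7, with a score of 674, rank 2533, and next came chr11:98355982-98357248 in intron 3, with a score of 651, rank 2619. In all 5 peaks lay in intron 3, 2 in intron 6 and 2 in intron 1, and the higher of the intron 1 peaks had a score of 454. From the promoter of Grb7 to intron 3 of Ikzf3, 12 DP peaks lay in 51.9 kb. One peak of intron 6, with a score of 131, covered the start of a non-coding transcript of the gene, 21 bp from its midpoint.

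Ikzf3 and Ikzf5 were the only members with a DP peak within 1 kb of their first start site, which 11.6% of protein-coding genes had. Counted over peaks, 8 of the 46, or 17.4% (9.09 to 30.7), lay within 1 kb of the start site of any protein-coding gene, against 13.7% of all DP peaks. At Ikzf3 the peak chr11:98406913-98408328 had a score of 89.6 and rank 11797, with its midpoint 0.275 kb upstream. It held 1 E-box, the CAGCTG printed above, in the first exon and 530 bp from the midpoint. The 3 other upstream peaks of Ikzf3, with scores from 71.4 to 146, lay nearer to the start sites of Zpbp2 and Ormdl3 than to that of Ikzf3. On the other side, a peak with a score of 263 lay 0.309 kb past the end of Ikzf3, and 5 more lay in Grb7, Erbb2 and Pgap3, with scores from 53.5 to 204.

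At Ikzf2, on the minus strand of chr1:69577788-69732534, E2A peaks were few. The body of 155 kb held 1 DP peak, chr1:69703785-69704463 in intron 3, with a score of 72.0 and rank 13635. The other DP peak, chr1:69814836-69816244, lay 83.0 kb upstream with a score of 421, rank 3902, and the iNKT peak chr1:69814838-69816192 covered the same place with a score of 117, rank 437. The midpoints of both were 25 bp apart, the closest of the 5 pairs, which were 25 to 344 bp apart. The site fell in no annotated gene, and Spag16 had the nearest start site at 58.0 kb. Its overlap held 4 E-boxes, and the CAGCTG printed above was 110 bp from the middle.

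The window of Ikzf4, on the minus strand of chr10:128067899-128083047, held 9 DP peaks and no iNKT peak. None of the 9 lay in the gene, and the nearest midpoint was 40.5 kb beyond its end. The highest, chr10:128152472-128154231, had a score of 2257 and rank 543, and its midpoint lay in an exon of Pmel, a pigment cell gene, 70.3 kb upstream of the start site of Ikzf4. The central 200 bp held CAGGTG 2 times and the Runx core ACCACA 5 times, on either strand. The next, chr10:128181425-128184361, had a score of 1600 and rank 894, and lay 1.78 kb from the start site of Dgka, which encodes a diacylglycerol kinase that dampens T cell receptor signaling. The third, with a score of 233, lay 1.52 kb from the start site of Zc3h10. Peaks with scores of 113 and 51.9 lay 67 and 20 bp from the start sites of Cdk2, a cell cycle kinase gene, and Rab5b. The other 4 had scores from 54.5 to 105 and lay nearest to the start sites of Esyt1, Zc3h10 and Erbb3. The nearest start site was never that of Ikzf4. The nearest iNKT peak to any of the 9 was 869 kb away. The peak near Dgka was just inside the window, 99.8 kb from the gene, and the first DP peak outside it, at 103 kb, had a score of 71.8. At Ikzf1 the first DP peak outside the window, 115 kb from the gene, had a score of 704, above all but the pair of intron 3 inside it, and at Ikzf2, Ikzf3 and Ikzf5 the first DP peaks outside, at 106 to 209 kb, had scores from 71.5 to 92.4.

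Ikzf5, on the minus strand of chr7:138532166-138554035, had a DP peak over its start site and 1 far upstream. The start site peak, chr7:138553590-138554468, had a score of 58.0 and rank 15807 of 17532, close to the calling limit, and its midpoint lay 6 bp from the start site. The start site of Acadsb, which encodes a mitochondrial dehydrogenase, faces away on the plus strand at a distance of 80 bp, so the peak covered both. It held 3 E-boxes, of which the nearest, CAGCTG in the first exon, was 40 bp from the midpoint. The other DP peak, chr7:138612634-138613368, had a score of 148, rank 8488, at 59.0 kb upstream. The nearest start site was that of Acadsb at 58.9 kb, and the midpoints of both DP peaks fell in the annotated record of Fgfr2, a growth factor receptor gene. Its central window held 1 CAGGTG and 4 ACCACA. No iNKT peak was called, and the nearest iNKT peak to the start site peak was 576 kb away.

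Across the family, 3 of the 5 members had an iNKT peak in the window, Ikzf1, Ikzf2 and Ikzf3, against 16.9% of protein-coding genes. Only Ikzf1 had iNKT peaks in its body, against 3.01% of genes. All 5 iNKT peaks overlapped a DP peak, or 100% (95% Wilson interval 56.6 to 100). Of the whole iNKT list 69.3% did, which lies inside this interval. Seen from the DP list, 5 of the 46 peaks, or 10.9% (95% Wilson interval 4.73 to 23.0), overlapped an iNKT peak, against 5.99% of all DP peaks, which lies inside this interval. Of the 5 DP peaks with a score of 1000 or more, 3 overlapped an iNKT peak, those of Ikzf1 and Ikzf3, and the pair in the window of Ikzf4 did not. This is 60.0% (23.1 to 88.2), and the share at this score over the whole list, 31.9%, lies inside the interval. Of the 41 weaker peaks 2 did, or 4.88% (1.35 to 16.1), against 3.27% of all weaker DP peaks. In each of the 5 pairs the iNKT peak lay mostly within the DP peak, with 91.6% to 100% of its length covered, while 48.6% to 96.2% of the DP peak was covered. The number of reads behind either list is unknown, so an uncalled iNKT peak does not show that E2A was absent.

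**Figure D3:**
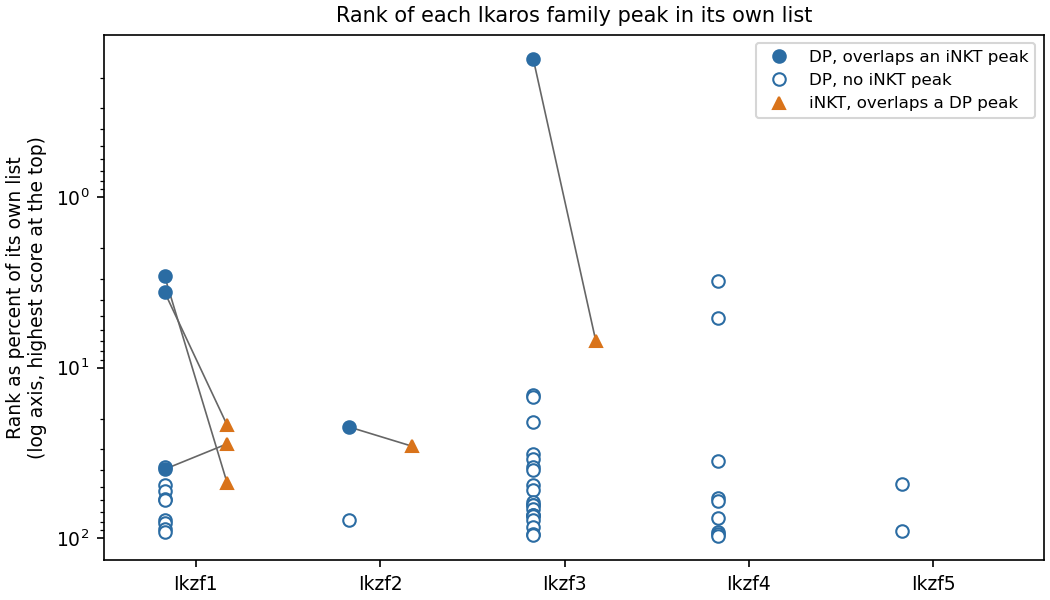
Rank of each Ikaros family peak as a percent of its own list (vertical log axis, highest scores at the top) by gene, with DP peaks as circles and iNKT peaks as triangles. Lines join overlapping peaks, filled circles overlap an iNKT peak, and the 2 high open circles at Ikzf4 are the peaks in Pmel and near Dgka. The lists differ in length and their depth is unknown, so heights are to be read within a cell type.

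The DP peaks at these genes were searched for motif cores on both strands in 200 bp at the midpoint, since the lists give no summit. CAGGTG, the E2A core, was found at 20 of 46, or 43.5% (95% Wilson interval 30.2 to 57.8), and at 43.9% of all DP peaks. Flanking windows of the same length, 2 kb away from every DP midpoint on each side, held it in 15.5%. CAGCTG, the other E-box, was found at 30.4% (19.1 to 44.8) against 29.0% of all DP peaks. With either form, 71.7% (57.5 to 82.7) of the peaks at the family had an E-box, against 60.8% of all. The Runx core ACCACA was found at 30.4% (19.1 to 44.8) against 23.8%, and the Tcf7/Lef1 core TCAAAG at 21.7% (12.3 to 35.6) against 17.4%. TGGGAA, the core bound by Ikaros proteins themselves, was found at 21.7% (12.3 to 35.6) against 15.8% of all DP peaks and 19.1% of the flanking windows. Every value over all DP peaks lay inside the interval of the 46. A core is a match of letters and was not tested as a bound site.

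Over whole peaks, 3 of the 46, or 6.52% (2.24 to 17.5), held neither CAGGTG nor CAGCTG, against 8.09% of all DP peaks. They were the intron 7 peak of Ikzf1, with a score of 67.1, and chr11:98373977-98374771 in intron 3 and chr11:98387957-98389288 in intron 1 of Ikzf3, with scores of 53.9 and 454. The density of both E-box forms was lower at the family, with 1.92 per kb over the 46 peaks and 2.68 per kb over all DP peaks. No interval is given for this density. The largest number, 8, was in the peak past the 3′ end of Ikzf3. Median GC content of the central windows was 50.5% against 51.0%, and median width was 1045 bp against 984 bp.

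**Figure D4:**
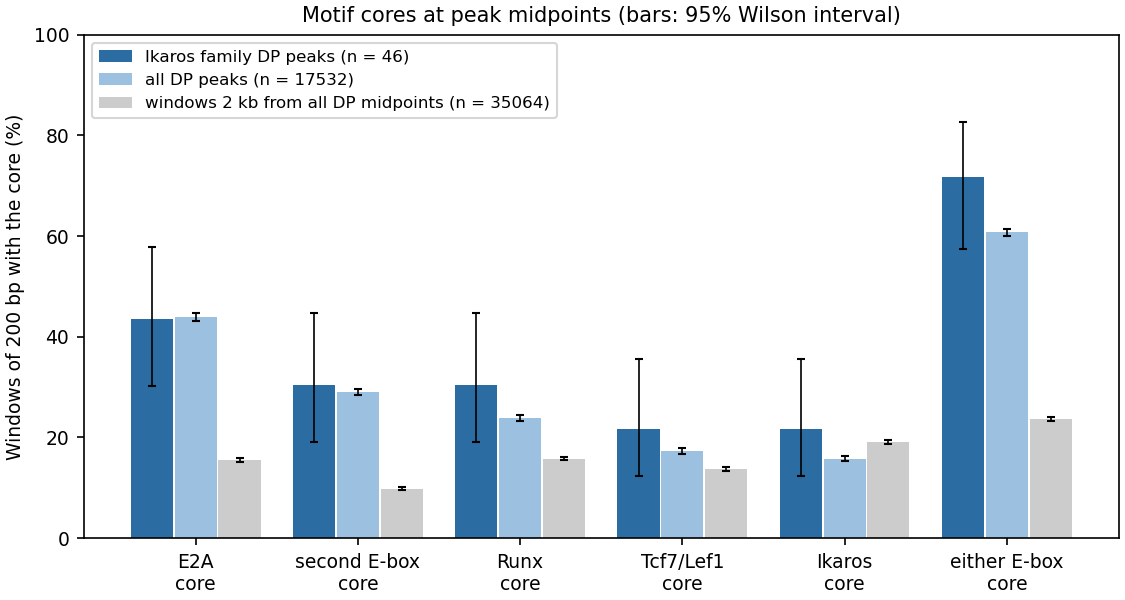
Percent of windows of 200 bp (vertical axis) that hold each motif core (horizontal axis), for the 46 Ikaros family DP peaks, all 17532 DP peaks and 35064 windows that lie 2 kb from DP midpoints, with 95% Wilson intervals as bars. The E2A core stands at 43.5% and 43.9% in the first and second group and at 15.5% in the third.

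Other genes were looked up with the same window. Ikaros proteins act in part through the NuRD complex, a nucleosome remodeling and deacetylase complex, and through the co-repressors Sin3 and CtBP. Of 17 genes of these partners, 14 had a DP peak in the window, where 65.1% of all protein-coding genes had one, and 8 had a DP peak in the body, against 20.4%. An iNKT peak was found in the window of 4, against 16.9% of all genes, and in the body of none. Their median was 5 DP peaks in the window, against 9 for the Ikaros family, the count of Ikzf4, and 2 for all protein-coding genes. Chd4, the NuRD ATPase, had the most DP peaks with 11, and Hdac2, Ctbp1 and Ctbp2 had none. Hdac1, a deacetylase gene, had 2 iNKT peaks, and Chd4, Sin3a and Ctbp1 had 1 each. Among other T lineage factors, Tcf7 had 23 DP peaks and 1 iNKT peak, Runx1 had 16, Lef1 15, Runx3 12 and Runx2 7, and the Runx genes and Lef1 had no iNKT peak. Ikzf1, with 12 DP and 3 iNKT peaks, thus had fewer DP peaks than Tcf7, Runx1 and Lef1. It had more iNKT peaks than any of these 5 genes. Per 100 kb of window, Tcf7 had 9.96 DP peaks, Lef1 4.78, Runx3 4.66, Ikzf1 4.17, Runx1 3.77 and Runx2 1.35. By density Ikzf1 stood above Runx1 and below Runx3. These are single counts and densities from 1 library each.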

How the data were processed

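E2A ChIP-Seq peaks of L-DKO DP and iNKT cells were used. According to the methods and the submitters' processing notes, reads with a single best position were aligned to mm9 by Bowtie 1.1.2, and peaks were called against input by MACS 1.4.2 at default settings. The authors deposited a position and a score per peak, which is the negative log10 of the MACS p-value multiplied by 10. Reads, inputs and coverage were not analysed here, and depth is unknown. Genes came from GENCODE M1 on NCBIM37, the same assembly as mm9, and promoter sequences of another build were not used. Positions count from 1. The transcription start site was the 5′ end of the gene record, symbols with several records were given the longest, and overlap meant at least 1 bp shared. Tied scores share the best rank. Introns follow the longest coding transcript. The genes and lists were chosen with earlier results of these data known. Peaks given singly are all iNKT peaks, those within 1 kb of a member's start site and the 3 highest DP peaks of each member, and other single peaks were chosen after their values were seen. Overlap, window and motif functions were tested on simulated data (5 of 5 checks recovered the answer). Alternatives varied the window, score, overlap, start site and motif search. Python 3.11.15, numpy 2.4.6, pandas 2.3.3, scipy 1.17.1 and matplotlib 3.10.9 were used.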

Additional observations from a re-analysis of the deposited data

How the results depend on the processing

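Of 26 alternative values of 5 results, 14 stayed within 1.5 times the count or within the counting interval, and 12 moved. None of these results has a direction that could reverse. With the gene body only, the window held 19 DP and 2 iNKT peaks, and 2 DP peaks were shared. With 200 kb on each side the DP count was 73, with a score of 100 or more it was 26, and with 200 or more there were 14 DP peaks and 1 iNKT peak. With only peaks whose nearest start site is that of the member, 16 DP and 3 iNKT peaks remained. These counts change by construction with the window or the list. The share of DP peaks with the core became 73.9% when the whole peak was searched for CAGGTG and 71.7% with CAGGTG or CAGCTG, since more sequence or more words were searched. No share over all DP peaks is given for the whole-peak search, so 73.9% is not to be set against the 43.9% of central windows. With the start of any annotated transcript, 4 DP peaks in place of 2 lay within 1 kb of a start site. No share over all genes is given under this rule. No paired analysis was possible because there is 1 library per cell type, and for the same reason no replicate could be left out. Depth is unknown, so the iNKT count limits what can be said of sites without an iNKT peak.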
